A study of Homo sapiens with 6 samples.

Results

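The 112 genes described here are the protein-coding genes whose read counts were higher in the si-MALAT1 library than in the control library of each of 3 NSCLC cell lines. They were chosen by the change itself. Counts were scaled by median-of-ratios size factors, 1 was added, and a gene was kept on the log2 scale when the change, si-MALAT1 over control, was at least 1.5-fold in H460, in H1299, and in A549, when each of the 6 counts was above 0, and when the mean count was at least 30. Of 46427 genes in the table, 12531 coding genes met the count criteria, and 122 of them, 0.974%, met the change criterion as well. A set of 10 of the 122 genes was left out by name (NAP1L5, SESN1, HDAC9, THRB, ATP8B1, BMF, TP53INP1, TRPS1, IL6R, and ABCA1). By the same criterion turned around, 150 coding genes, 1.2%, were lower in the 3 cell lines. Since the change chose the genes, it is described below with no test, and nothing is read from the shares of 0.974% and 1.2%.

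MALAT1 is an abundant long non-coding RNA of the cell nucleus, where it is concentrated in speckles rich in splicing factors, and it has been described as binding miRNAs in several tumors. H460 is a large-cell lung carcinoma line, H1299 was derived from a lymph node metastasis of an NSCLC and lacks p53, and A549 is a lung adenocarcinoma line. The 6 libraries were 1 control from each cell line and 1 from each cell line transfected with si-MALAT1, a small interfering RNA against MALAT1. The labels give the treatment of the controls only as non, and the methods also describe cells given si-Control without naming which was sequenced, so an effect of transfection and an effect of lower MALAT1 cannot be told apart if the controls were not transfected. Total counts ran from 42506818 to 68515992 reads per library. Each cell line gave 1 library per condition, so no replicate stands behind a change in one cell line. Its 95% interval, exact Clopper-Pearson for the share of reads that fell in the si-MALAT1 library, covers counting error only. The interval was scaled for depth but computed without the 1 that was added for the change. For genes with few reads it therefore belongs to a ratio other than the printed change. MALAT1 itself had 231045 against 43858 reads in H460, 407551 against 47935 in H1299, and 93747 against 14447 in A549, control first, and was thus lower in the library labelled si-MALAT1, with log2 changes of -2.32, -2.96, and -2.84 in H460, H1299, and A549, the order used throughout. In cultures measured in bulk, fewer cells of a kind and less RNA per cell cannot be told apart.

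The 112 genes were modestly expressed, and their median change was a little under 2-fold. The median log2 change was 0.87 in H460, 0.84 in H1299, and 0.94 in A549, against 0.02, 0.04, and 0.01 over all coding genes that met the count criteria. The median over the 112 genes of the mean change over the cell lines was 0.96, a 1.95-fold difference. On the log2(TPM + 1) scale that median was 0.60, and 21 genes met the change criterion. The change was at least 1 on the log2 scale for 41 genes in H460, for 38 in H1299, and for 50 in A549, and for 8 genes in the 3 cell lines at once (ABHD14A-ACY1, RPL36A-HNRNPH2, FOSB, PACSIN1, FOS, KALRN, TP63, and KCNK3). A549 held the largest of the 3 changes for 49 genes, H460 for 35, and H1299 for 28. For 56 of the 112 genes the counting interval in the cell line with the largest change lay above that in the cell line with the smallest. Without replicates this does not show that the change differed between cell lines.

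**Figure D1:**
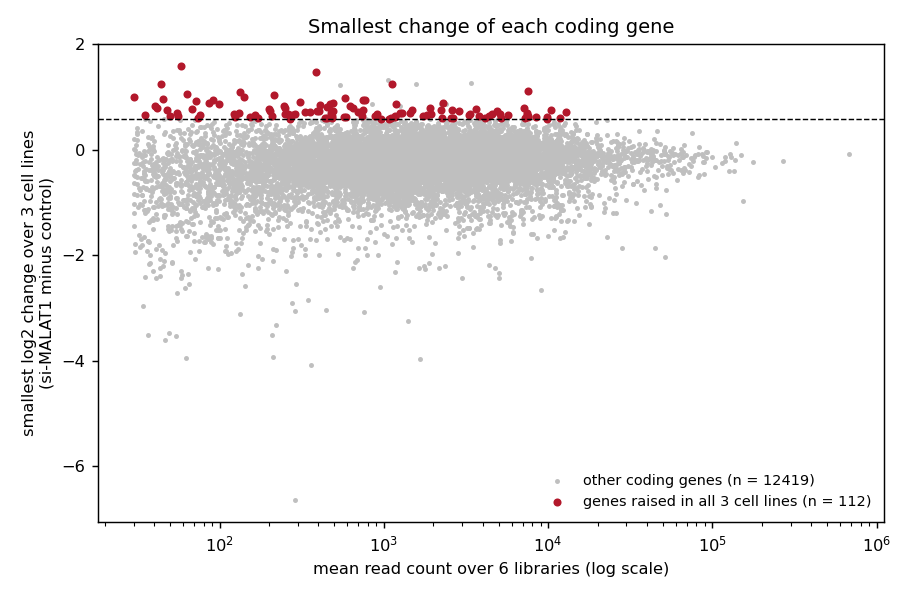
Smallest of the 3 log2 changes of each coding gene (vertical axis, si-MALAT1 minus control) against its mean read count over the 6 libraries (horizontal axis, log scale). Red points are the 112 genes, all above the dashed line at 1.5-fold, and the grey points above that line are the 10 genes left out by name.

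The mean count of the 112 genes had a median of 587 reads, with a range from 30 to 12809.5, against a median of 1689 over all coding genes that met the count criteria. In the control libraries their median TPM (a level per transcript length and depth) was 1.62 in H460, 2.84 in H1299, and 2.20 in A549, against 8.43, 9.49, and 9.77 over all those genes. At least 100 reads were counted in each of the 6 libraries for 61 of the genes, and 15 had a library with fewer than 10 reads. The counting interval lay above 0 in the 3 cell lines for 99 genes and above the threshold in the 3 cell lines for 36. The choice of genes required each change to be at least 1.5-fold. These 2 counts thus follow from that choice and from the number of reads, and lend the change no support. The same counts over all coding genes are not given here. The counting interval reached 0 in at least 1 cell line for 13 genes with few reads (ADPRH, PTGER2, ZNF157, TP63, JAKMIP2, NUPR1, FLVCR2, PCDHA4, ANKRD7, COL20A1, PRRT1, ZMYND12, and FBXL22). In the deposited TPM, 111 of the 112 genes were also higher after si-MALAT1 in the 3 cell lines, and 74 of them by at least 1.5-fold in each. FBXL22 was the exception, with 18 and 42 reads in H460 but a TPM of 0.124 and 0.114.

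The genes fell into groups by their known roles, which were assigned from general knowledge with the values in view. After readthrough genes, the group with the highest median change was that of the immediate early transcription factors FOS, FOSB, JUN, and EGR1. Such genes are transcribed within minutes of a growth factor or stress signal, without new protein synthesis. FOS, FOSB, and JUN proteins pair to form AP-1, a dimeric factor that binds the sequence TGACTCA, and EGR1 is a zinc finger factor induced by the same signals. The median of the mean log2 change of these 4 genes was 1.65, with a range from 1.24 to 2.21.

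FOS (chr14:75278828-75282230 on the plus strand of GRCh38) had 1287 control reads against 9352 after si-MALAT1 in H460, 1276 against 6990 in H1299, and 7677 against 18442 in A549. The log2 changes were 2.94 (95% interval 2.86 to 3.03) in H460, 2.58 (95% interval 2.50 to 2.67) in H1299, and 1.12 (95% interval 1.08 to 1.16) in A549. The control count was far higher in A549 than in the other cell lines. FOSB (chr19:45467996-45475179, plus strand), the closest relative of FOS in this list, had 187 against 1241 reads in H460, 686 against 1797 in H1299, and 774 against 2039 in A549. Its log2 changes were 2.81, 1.52, and 1.25, the largest in H460. JUN (chr1:58780791-58784047, minus strand) had 625 against 2095 reads in H460, 2873 against 6416 in H1299, and 1277 against 2139 in A549, with log2 changes of 1.82, 1.29, and 0.60. The A549 change of JUN stood just above the threshold, and its 95% interval ran from 0.50 to 0.70.

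EGR1 (chr5:138465479-138469303, plus strand) showed the other order of cell lines. It had 313 control reads against 585 after si-MALAT1 in H460, 424 against 1067 in H1299, and 222 against 896 in A549, with log2 changes of 0.98 (95% interval 0.78 to 1.19) in H460, 1.46 (95% interval 1.3 to 1.63) in H1299, and 1.86 (95% interval 1.66 to 2.09) in A549. Scaled for depth, the EGR1 controls were close to one another, between 289 (H460) and 336 (H1299) reads. The 3 si-MALAT1 libraries lay above them, at 572 to 1067, a contrast that the choice of genes used. EGR1 was the only member of the EGR family that met the count criteria. The other 4 AP-1 subunits did not follow in all 3 cell lines. FOSL2 had log2 changes of -0.79, 0.64, and -0.86, and FOSL1 of -0.41, -0.98, and 0.29. JUNB had -0.17, 0.14, and 0.73 and JUND 0.17, 0.39, and -0.26. FOS, FOSB, and JUN were thus 3 of the 7 AP-1 genes that met the count criteria, against 0.974% of all coding genes, in a list drawn up after the values were seen. Of the 7, 0 were lower in the 3 cell lines, against 1.2% of all coding genes.

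**Figure D2:**
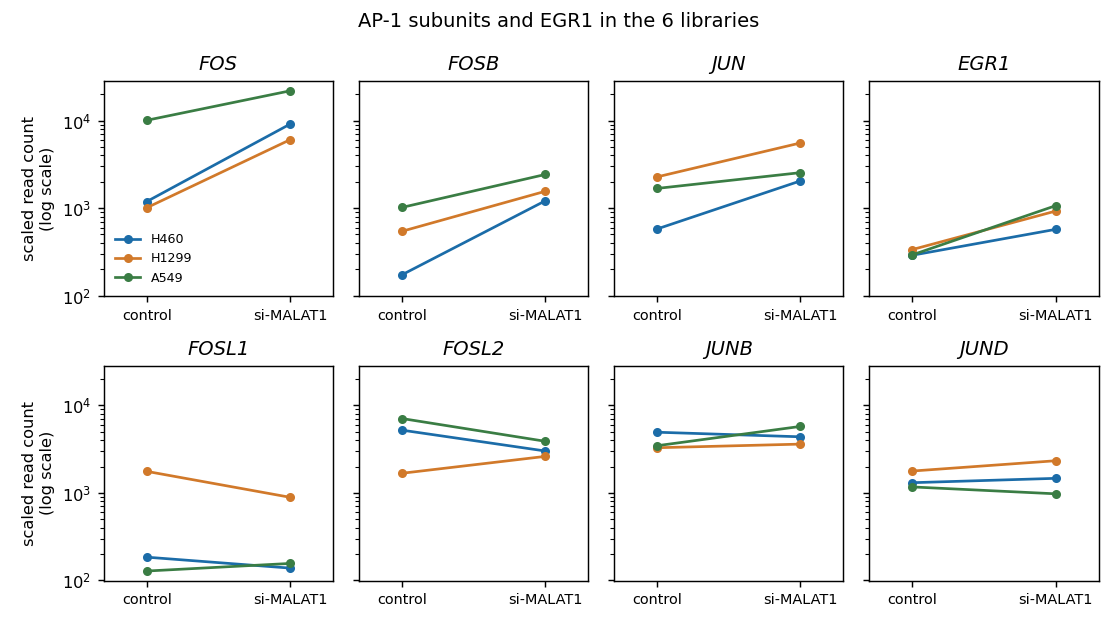
Scaled read counts (vertical axis, log scale) of 7 AP-1 subunits and EGR1 in the control and the si-MALAT1 library of each cell line, 1 library per point. FOS, FOSB, JUN, and EGR1 are higher after si-MALAT1 in each cell line, while FOSL1, FOSL2, JUNB, and JUND are each lower in at least 1 cell line.

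The promoters of FOS, FOSB, and EGR1 are shown because these genes were higher together. Each run holds 250 bases before and 50 after the annotated start, from RefSeq on GRCh38.p14, 5′ to 3′ on the strand of the gene. Capitals mark TATAAA in FOS and FOSB, and CArG boxes in EGR1, the element read by serum response factor. JUN, not shown, held neither word in its window. The windows reach only 250 bases upstream, so a word that lies further away was not searched. FOS lies at chr14:75278578-75278877, FOSB at chr19:45467746-45468045, and EGR1 at chr5:138465229-138465528, all on the plus strand.
FOS promoter: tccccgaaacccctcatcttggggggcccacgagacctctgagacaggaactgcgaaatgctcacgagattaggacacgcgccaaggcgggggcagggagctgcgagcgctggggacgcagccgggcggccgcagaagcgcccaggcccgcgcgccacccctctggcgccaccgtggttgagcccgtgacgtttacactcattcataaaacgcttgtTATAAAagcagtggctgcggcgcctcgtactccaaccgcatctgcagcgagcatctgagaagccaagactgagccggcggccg
FOSB promoter: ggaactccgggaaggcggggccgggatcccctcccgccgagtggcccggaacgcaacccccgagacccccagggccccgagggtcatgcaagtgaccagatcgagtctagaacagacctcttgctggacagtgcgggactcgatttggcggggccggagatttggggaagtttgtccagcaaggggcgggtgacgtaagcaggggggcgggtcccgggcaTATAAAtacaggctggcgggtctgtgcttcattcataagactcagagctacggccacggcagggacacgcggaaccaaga
EGR1 promoter: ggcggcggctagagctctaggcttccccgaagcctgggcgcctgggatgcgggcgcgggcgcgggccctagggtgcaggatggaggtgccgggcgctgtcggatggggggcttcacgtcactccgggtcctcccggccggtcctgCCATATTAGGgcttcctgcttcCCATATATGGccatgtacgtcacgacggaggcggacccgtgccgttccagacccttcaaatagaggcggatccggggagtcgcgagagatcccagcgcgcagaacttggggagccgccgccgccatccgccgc

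A promoter of this length was matched for 90 of the 112 genes and for 10306 of the coding genes that met the count criteria. A CArG box on either strand was found in 4.44% of the 90 promoters (EGR1, KCNK3, ATXN1, and FBXL22) and in 0.999% of all 10306. The word was searched after the values were seen. TATAAA was found in 7.78% of the 90 (FOS, FOSB, SELENOP, TP63, CD83, ARID5B, and TAFA2) and in 5.5% of all. The AP-1 word TGACTCA was found in 2.22% of the 90, in YOD1 and TRPV3, against 2.77% of all, and TGACGTCA in 4.44% (KCNF1, STK38L, CD2AP, and TP53INP2) against 3.34%. The forkhead word GTAAACA was found in 5.56% (BTC, NRAS, SELENOP, PRRT1, and MTURN) against 2.27%. CACGTG was found in 10.0% against 10.3%, and CCAAT in 27.8% against 36.8%. All words were read on both strands, a CArG box being CC, 6 bases of A or T, and GG. With 90 promoters, a share of 4.44% is 4 genes, and no test was made.

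Among the 14 other transcription and chromatin regulators, TP63 had the largest mean change, on few reads. TP63 encodes a p53 relative that maintains basal epithelial cells. It had 2 control reads against 18 after si-MALAT1 in H460, 2 against 5 in H1299, and 47 against 304 in A549, with log2 changes of 2.71, 1.05, and 2.53, and the H1299 interval, from -1.16 to 4.84, included 0. Most of its reads came from A549. ZNF157 (chrX:47370578-47414498), a zinc finger gene, had 2 against 15 reads in H460, 52 against 96 in H1299, and 4 against 11 in A549, with log2 changes of 2.46, 1.00, and 1.17. It was the only 1 of 396 ZNF genes that met both criteria, 0.253% against 0.974% of all coding genes. ZNF768 and ZNF598 were lower in the 3 cell lines, beside 1.2% of all coding genes. ARID5B (chr10:61901254-62096944), a DNA-binding partner of a histone demethylase, was one of the 5 genes whose control TPM differed least between cell lines, at 2.36, 2.36, and 2.23. It had 1032 against 1744 reads in H460, 1036 against 1647 in H1299, and 587 against 1009 in A549, with log2 changes of 0.84, 0.80, and 0.64. The 11 remaining genes of this group were DNMT3B, a de novo DNA methyltransferase, ARID3A, SALL2, BHLHA15, ZBTB47, NAP1L2, SCML2, a Polycomb group protein, ATXN1, TAF9B, TCEAL1, and NUPR1. Over the 14 genes the mean log2 change ranged from 0.65 to 2.09. The RNA-binding regulators CPEB3 and MEX3B, which control mRNA translation and stability, had mean log2 changes of 1.52 and 0.80, and those of CPEB3 were 0.70, 1.90, and 1.96.

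The 10 ligands, receptors, and other signalling proteins of the cell surface had a median change of 1.45 in A549 against 0.91 in H460 and 0.93 in H1299. BTC (chr4:74744759-74794718), the gene of betacellulin, a ligand of the EGF receptor and ERBB4, had 24 control reads against 79 after si-MALAT1 in H460, 86 against 152 in H1299, and 83 against 168 in A549. Its log2 changes were 1.75, 0.94, and 0.87, with the largest in H460. TGFBR3 (chr1:91680343-91906002), or betaglycan, presents TGF-beta to its signalling receptors. It had 1504 against 2228 reads in H460, 3665 against 9324 in H1299, and 813 against 2166 in A549, with log2 changes of 0.65, 1.48, and 1.27, and the H460 interval from 0.55 to 0.74 lay below the interval of both other cell lines. PIK3IP1 (chr22:31281593-31292534), a transmembrane inhibitor of PI3-kinase, had 76 against 274 reads in H460, 425 against 637 in H1299, and 140 against 445 in A549. Its changes were 1.92, 0.71, and 1.52, smallest in H1299.

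TNFRSF11B, on chromosome 8, encodes osteoprotegerin, a secreted decoy receptor for RANKL. It had 2955 control reads against 4502 after si-MALAT1 in H460, 115 against 171 in H1299, and 4 against 26 in A549, with log2 changes of 0.69, 0.70, and 2.35. No other of the 112 genes had a wider range of control levels, and its A549 change rested on these few reads, with a 95% interval from 1.03 to 4.54. FAM3C (chr7:121348851-121396369), a secreted protein linked to epithelial plasticity, was one of the most abundant of the genes, with 3595 against 5689 reads in H460, 17244 against 30875 in H1299, and 1277 against 3851 in A549. Its log2 changes were 0.74, 0.97, and 1.45 and their intervals did not overlap. The others in this group were MST1R, the receptor of macrophage-stimulating protein, TLR3, the endosomal sensor of double-stranded RNA, PTGER2, a prostaglandin E2 receptor, CD83, and TAFA2. TLR3 had 556 against 948 reads in H460, 171 against 295 in H1299, and 141 against 349 in A549, with log2 changes of 0.85, 0.91, and 1.16.

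Genes of cell adhesion, junctions, and matrix formed a group of 12, with a median mean change of 1.09. EPCAM (chr2:47369311-47387020), the epithelial cell adhesion molecule, had 30 control reads against 73 after si-MALAT1 in H460, 23 against 43 in H1299, and 196 against 485 in A549. The log2 changes were 1.33, 0.99, and 1.16, close to one another on a level that was far higher in A549 than in the other cell lines. FLRT3 (chr20:14322985-14337847), a transmembrane protein of cell adhesion and FGF signalling, had 119 against 428 reads in H460, 276 against 929 in H1299, and 1777 against 3582 in A549, with log2 changes of 1.92, 1.88, and 0.87. The change of FLRT3 in A549 was below the counting intervals of H460 and H1299. CNTN1 (chr12:40692429-41072415), a neuronal adhesion molecule of the immunoglobulin superfamily, was among the 5 genes with the highest control TPM, with 7367 against 12274 reads in H460, 3318 against 5292 in H1299, and 17323 against 31283 in A549. Its log2 changes were 0.82, 0.80, and 0.71, with a mean of 0.78 ± 0.06 (SD, n = 3 cell lines).

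MATN2, the matrix protein matrilin 2 on chromosome 8, had 132 control reads against 244 after si-MALAT1 in H460, 449 against 876 in H1299, and 923 against 1959 in A549, with log2 changes of 0.96, 1.09, and 0.94. Its counts differed far more between cell lines than its changes did. PCDHB11 (chr5:141199627-141203779) and PCDHA4 (chr5:140807068-141012347), protocadherins of one gene cluster, had 609 against 918 reads in H460, 1407 against 2417 in H1299, and 41 against 92 in A549 for the first, with changes of 0.67, 0.91, and 1.01. PCDHA4 had 4 against 9 reads in H460, 311 against 455 in H1299, and 254 against 695 in A549, with changes of 1.06, 0.68, and 1.3, and its H460 interval, from -0.59 to 3.40, included 0. The protocadherin alpha genes share their last exons, so reads of one can be counted on another and the PCDHA4 counts are uncertain. Of the 56 cadherin and protocadherin genes that met the count criteria these were the 2 above the threshold, against 0.974% of all coding genes, and 0 were lower, against 1.2%. The median of the mean change of those 56 genes was 0.43, against 0.02 over all coding genes. By cell line their median was 0.192 in H460, 0.695 in H1299, and 0.334 in A549. MPZL3 (chr11:118226690-118252365), an immunoglobulin-like membrane protein, had 111 against 228 reads in H460, 65 against 97 in H1299, and 40 against 251 in A549, with changes of 1.11, 0.70, and 2.48, one of the 5 widest ranges of the list. The remaining genes of the group were NPNT, COL1A1, COL20A1, CGN, which encodes the tight junction protein cingulin, and CD2AP.

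The 7 channel and transporter genes included 3 of the 40 potassium and calcium channel genes that met the count criteria, against 0.974% of all coding genes, and 0 of the 40 were lower in the 3 cell lines, against 1.2%. KCNK3 (chr2:26692722-26733420), a background potassium leak channel, had 173 control reads against 365 after si-MALAT1 in H460, 117 against 271 in H1299, and 113 against 256 in A549. The log2 changes were 1.15 (95% interval 0.89 to 1.43) in H460, 1.33 (95% interval 1.02 to 1.67) in H1299, and 1.03 (95% interval 0.71 to 1.37) in A549. In reads, its 3 si-MALAT1 libraries all lay above its 3 controls, a contrast that the choice of genes used. In scaled counts this held for 27 of the 112 genes, against 2.16% of the coding genes that met the count criteria. KCNAB3 (chr17:7921859-7930346), an auxiliary subunit, had 34 against 63 reads in H460, 105 against 217 in H1299, and 26 against 106 in A549, with changes of 0.95, 1.17, and 1.85. KCNF1 (chr2:10911934-10914225), a modifier subunit without currents of its own, had 89 against 188 reads in H460, 69 against 129 in H1299, and 208 against 347 in A549, with changes of 1.15, 1.02, and 0.59. In A549 KCNF1 was at the threshold, with an interval from 0.34 to 0.85. TRPV3, AQP11, FLVCR2, and XKR8, a lipid scramblase, completed the group. The median change of the 40 channel genes was -0.098.

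The group of kinases, GTPases, and their regulators held 11 genes. NRAS (chr1:114704469-114716771), the small GTPase upstream of the RAF kinases, had 3893 control reads against 5899 after si-MALAT1 in H460, 11580 against 19208 in H1299, and 3626 against 6134 in A549. Its log2 changes of 0.68, 0.86, and 0.61 were small but rested on many reads, with the lowest bound of the 3 intervals at 0.55. KALRN (chr3:124033341-124726325) had 123 against 250 reads in H460, 16 against 36 in H1299, and 98 against 273 in A549, with changes of 1.10, 1.24, and 1.33. LRRK2 (chr12:40224890-40369285), a large kinase that phosphorylates Rab proteins, had 200 against 402 reads in H460, 4863 against 8594 in H1299, and 3954 against 6606 in A549, with changes of 1.08, 0.95, and 0.60, and its H460 level was far under the other 2. RAB27A (chr15:55202966-55291338), a GTPase of secretory vesicles, had 477 against 691 reads in H460, 656 against 971 in H1299, and 269 against 472 in A549, with changes of 0.62, 0.70, and 0.66. RAB11FIP4 (chr17:31391675-31538211), an effector of RAB11 in recycling endosomes, had 298 against 440 reads in H460, 265 against 370 in H1299, and 760 against 1313 in A549, with changes of 0.64, 0.61, and 0.64. Both Rab genes had nearly the same change in each cell line, just past the threshold.

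STYX (chr14:52730159-52774989), a phosphatase-like protein without catalytic activity, had 2258 control reads against 3249 after si-MALAT1 in H460, 2474 against 3742 in H1299, and 1449 against 2738 in A549, with log2 changes of 0.61, 0.73, and 0.77. It was one of the 5 genes with the most even control TPM. CHN2 (chr7:29146547-29514335), a Rac GTPase-activating protein, had 404 against 574 reads in H460, 203 against 361 in H1299, and 19 against 49 in A549, with changes of 0.59, 0.96, and 1.19, and its smallest change, in H460, was the smallest of the whole list. RHOBTB1, STK38L, MAST4, and DOK3 completed the group, and RHOBTB1, with 6587 against 13090 reads in H460, 1478 against 2332 in H1299, and 6605 against 12831 in A549, had changes of 1.07, 0.79, and 0.81.

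In the ubiquitin pathway, 8 genes were found. KLHL13 (chrX:117897813-118117340) and KLHL35 (chr11:75422394-75430629) encode kelch adaptors of CUL3 ligases. KLHL13 had 494 control reads against 974 after si-MALAT1 in H460, 645 against 987 in H1299, and 444 against 912 in A549, with log2 changes of 1.06, 0.74, and 0.89. KLHL35 had 132 against 230 reads in H460, 30 against 76 in H1299, and 8 against 43 in A549, with changes of 0.88, 1.43, and 2.18. FBXL22 (chr15:63597387-63603432), an F-box protein, had 18 against 42 reads in H460, 26 against 38 in H1299, and 26 against 62 in A549, with changes of 1.25, 0.65, and 1.09 that rest on few reads. The other genes were YOD1, a deubiquitinase, HECTD2, MARCHF3, KCTD2, and KLHDC3. YOD1 had 3246 against 5087 reads in H460, 1070 against 3320 in H1299, and 1066 against 3492 in A549, with changes of 0.73, 1.76, and 1.57. Of the 267 genes in the families RNF, TRIM, FBXO, FBXL, FBXW, KLHL, UBE2, and USP that met the count criteria, these 3 kelch and F-box genes were higher, against 0.974% of all coding genes, and 4 were lower (USP18, TRIM44, RNF185, and USP41), against 1.2%. Both shares were near those of all coding genes.

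Membrane trafficking supplied 7 of the genes and the cytoskeleton 5. PLEKHB2 (chr2:131104847-131149852), a pleckstrin homology protein of recycling endosomes, had 9294 control reads against 13249 after si-MALAT1 in H460, 12549 against 20574 in H1299, and 3952 against 11453 in A549. Its log2 changes were 0.59, 0.84, and 1.39, with intervals that did not overlap. KIF2A (chr5:62306162-62391025), a kinesin that takes microtubules apart, had 8033 against 11412 reads in H460, 10519 against 15239 in H1299, and 5154 against 8739 in A549, with changes of 0.59, 0.67, and 0.62, nearly the same in each cell line. PACSIN1, STXBP5, SNX12, TMED5, ATL3, and GPRASP2 were the other trafficking genes, and MAP7, TTLL7, ACTRT3, and JAKMIP2 the other cytoskeletal ones. PACSIN1, a membrane-bending protein of endocytosis, had 14 against 62 reads in H460, 46 against 101 in H1299, and 6 against 35 in A549, with changes of 2.15, 1.24, and 2.26.

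The 13 enzymes of lipids, glycans, and metabolism, together with proteases, had a median mean change of 0.86. SELENOP (chr5:42799880-42812076), the secreted carrier of selenium, had 63 control reads against 210 after si-MALAT1 in H460, 350 against 543 in H1299, and 3 against 25 in A549, with log2 changes of 1.80, 0.76, and 2.64. The A549 value rested on few reads, with an interval from 1.20 to 5.29. CA5B (chrX:15738270-15788411), a mitochondrial carbonic anhydrase, had 396 against 585 reads in H460, 389 against 789 in H1299, and 251 against 480 in A549, with changes of 0.64, 1.15, and 0.79, and its control TPM of 0.992, 0.985, and 1.05 was the most even of the list. In the sphingolipid pathway SMPD1, the acid sphingomyelinase that makes ceramide, had changes of 0.63, 0.82, and 0.92, and SGPP1, which removes the phosphate of sphingosine 1-phosphate, of 0.63, 0.99, and 0.83. PCTP, a phosphatidylcholine carrier, had changes of 0.86, 0.76, and 0.92. The glycosyltransferase B4GALT5 had changes of 0.74, 0.77, and 0.79. Those of GALNT7 were 0.68, 1.08, and 1.14, and those of DPY19L4 0.61, 0.69, and 0.67. CA13, ADPRH, MEST, APH1B, a gamma-secretase subunit, and NAPSA, an aspartic protease of lung, were the others.

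The 15 genes of other or unknown role included C5orf15 (chr5:133955510-133968625), the gene with the highest mean control TPM of the list, at 55.4. It had 6061 control reads against 9443 after si-MALAT1 in H460, 5172 against 7862 in H1299, and 5935 against 10271 in A549, with log2 changes of 0.72, 0.73, and 0.65. SNN (chr16:11668455-11679154), the small membrane protein stannin, had 422 against 769 reads in H460, 483 against 867 in H1299, and 505 against 1450 in A549, with changes of 0.95, 0.97, and 1.38. FAIM (chr3:138608099-138633376), an inhibitor of Fas-induced apoptosis, had 379 against 709 reads in H460, 380 against 525 in H1299, and 254 against 470 in A549, with changes of 0.98, 0.60, and 0.74. The control TPM of FAIM was among the 5 most even of the list. SCARA3, a scavenger receptor gene on chromosome 8, had 1251 against 2970 reads in H460, 157 against 228 in H1299, and 2273 against 4066 in A549, with changes of 1.33, 0.67, and 0.69, and it varied widely between cell lines. MTURN (chr7:30134986-30162764) had 866 against 1231 reads in H460, 981 against 1596 in H1299, and 601 against 1196 in A549, with changes of 0.59, 0.83, and 0.85. TP53INP2, DNAJB5, SNCG, MANSC1, PRRT1, ANKRD7, ZMYND12, C8orf88, CCDC17, and CCDC71L were the others.

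A group of 4 genes were readthrough genes, annotated for transcripts that run from one gene into the next, and their counts are uncertain because their exons belong to the component genes too. ABHD14A-ACY1 (chr3:51975064-51989197) had 8 control reads against 132 after si-MALAT1 in H460, 45 against 126 in H1299, and 8 against 32 in A549, with log2 changes of 3.95, 1.59, and 1.76, while the log2 changes were 0.47, -0.29, and -0.37 for ABHD14A and, for ACY1, 0.13, 0.06, and 0.02. RPL36A-HNRNPH2 (chrX:101391011-101414133) had 238 against 1065 reads in H460, 117 against 300 in H1299, and 66 against 531 in A549, with changes of 2.24, 1.48, and 2.85, while they were 0.07, -0.11, and 0.19 for RPL36A and, for HNRNPH2, 0.28, 0.17, and 0.19. The component genes of both pairs differed far less than the readthrough gene. COMMD3-BMI1 (chr10:22316383-22331485) had 204 against 402 reads in H460, 22 against 302 in H1299, and 301 against 624 in A549, with changes of 1.06, 3.83, and 0.91, the widest range of the list. Those of COMMD3 were 0.37, -0.45, and 0.07 and those of BMI1 0.53, -0.06, and 0.27. POC1B-GALNT4 had 326 against 723 reads in H460, 658 against 1068 in H1299, and 245 against 693 in A549, with changes of 1.23, 0.83, and 1.35. Those of POC1B were -0.10, 0.37, and 0.35 and those of GALNT4 0.09, 1.06, and 0.93. Whether reads moved between a readthrough gene and its components was not tested. In all, 11 of the 112 genes (9.82%) overlap the exons of another gene on their own strand, against 7.06% of all, and 22 (19.6%) overlap one on the opposite strand, against 29.7%.

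**Figure D3:**
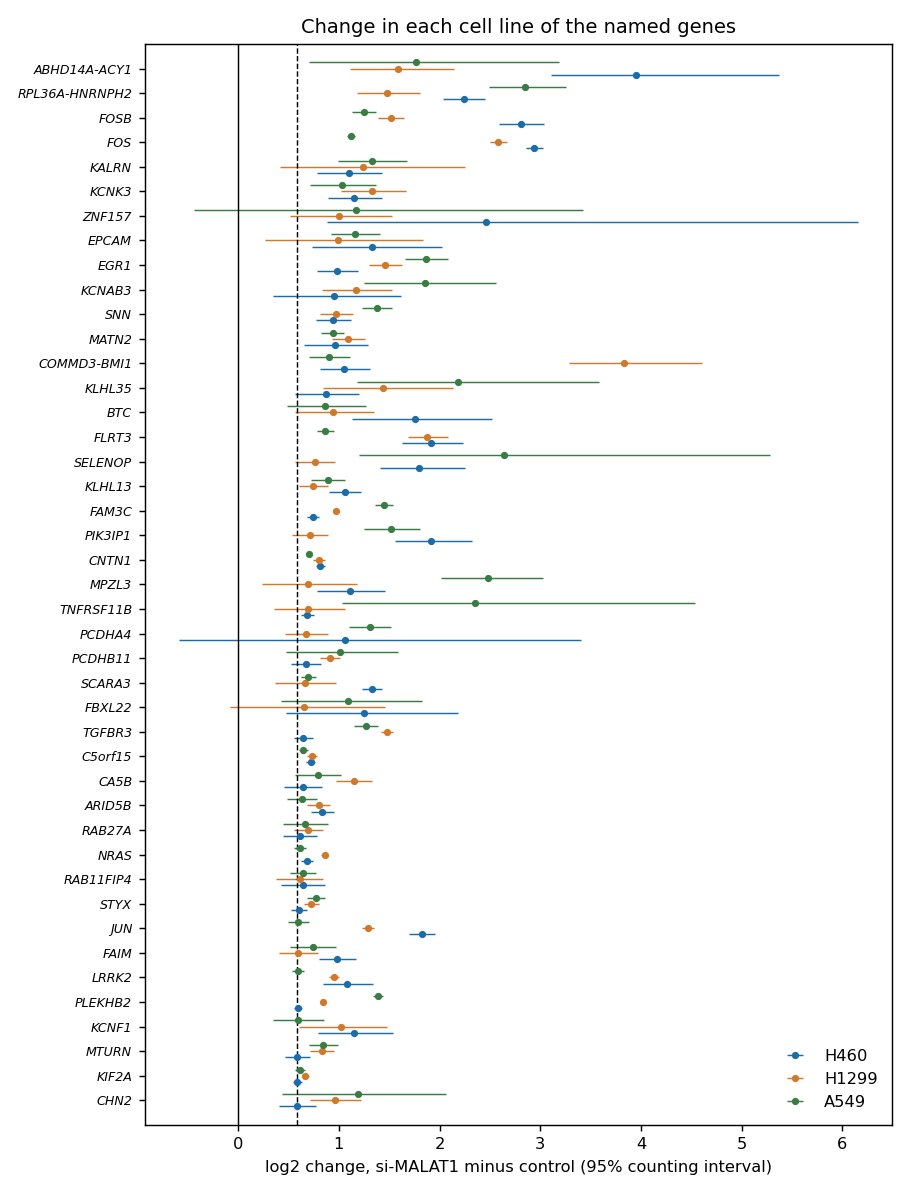
Log2 change, si-MALAT1 minus control, of 43 of the genes in H460, H1299, and A549 (points), with exact 95% counting intervals (bars), 1 library per condition. The dashed line is the 1.5-fold threshold. Intervals are wide for genes with few reads such as ZNF157 and PCDHA4 and narrow for C5orf15, KIF2A, and FOS, and the cell line with the largest change differs from gene to gene.

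At the threshold, the genes just inside were CHN2, KIF2A, and MTURN, with smallest changes of 0.5869, 0.588, and 0.5883. The coding genes just outside were TCF7, a WNT pathway transcription factor, MAN1A1, a mannosidase, and CLIP4, with 0.5848, 0.5821, and 0.5809. TCF7 had 20 control reads against 29 after si-MALAT1 in H460, 373 against 969 in H1299, and 89 against 148 in A549, with log2 changes of 0.59, 1.5, and 0.58. MAN1A1 had 182 against 258 reads in H460, 5273 against 7616 in H1299, and 4 against 26 in A549, with changes of 0.58, 0.66, and 2.35. CLIP4 had 5175 against 7316 reads in H460, 2528 against 4351 in H1299, and 3664 against 6772 in A549, with changes of 0.58, 0.91, and 0.74. No gap separated the genes on the 2 sides of the threshold.

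Lists of pathway genes, drawn up with earlier results known, held few of the 112 genes. Of 28 p53 target genes that met the count criteria, SESN1 and TP53INP1 were the 2 above the threshold, both left out by name, and 0 were lower. Of 19 FOXO target and quiescence genes, PIK3IP1 was higher and 0 were lower, and the median of the mean change of the 19 was 0.42. The median was uneven between cell lines, at 0.02 in H460, 0.71 in H1299, and 0.31 in A549. Of 63 genes of ErbB signalling, BTC, JUN, and NRAS were higher, and PRKCA, RPS6KB1, STAT5A, and STAT5B were lower. Of 37 genes of TGF-beta and BMP signalling, TGFBR3 was higher and 0 were lower. No gene passed in either direction among 37 autophagy genes, 20 circadian clock genes, and 31 genes of WNT signalling. Of 222 solute carriers 0 were higher and 4 were lower (SLC39A14, SLC48A1, SLC39A10, and SLC35E1), and of 92 phosphatase genes 0 were higher and 2 were lower (PTPN11 and PPP1R32). The median of the mean log2 change was 0.43 for the cadherins and protocadherins, 0.42 for the FOXO list, and 0.23 for the AP-1 subunits. For 11 other lists of pathways and families it lay between -0.10 for the channels and 0.12 for the clock genes, against 0.02 over all coding genes. Beside these counts stand the 0.974% of coding genes above the threshold and the 1.2% below it, and no list was tested.

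The choice of genes did not use the contrast between cell lines, although its minimum of the mean count did use their levels. The contrast was tested with edgeR's quasi-likelihood F-test of the cell line, with treatment in the model and Benjamini-Hochberg adjustment over 21771 genes. The level differed between cell lines (adjusted p under 0.05) for 88 of the 112 genes, 78.6%. The same test called 72.4% of the 12531 coding genes that met the count criteria and 62.9% of all genes tested. The share among the 112 genes was near that of the coding genes, so it is no result about these genes. With no treatment term in the model, 56 of the 88 genes were called. That model leaves the change after si-MALAT1, by which the genes were chosen, in the residual spread. Its share over all coding genes is not given here, so nothing is read from the lower count. The spread between the highest and the lowest cell line had a median of 1.70 on the log2 scale, against 0.98 over the coding genes. For 81 of the 112 genes it was wider than their mean change after si-MALAT1. The same count over all coding genes is not given here, and the genes were chosen by that change, so the 81 are no result about them. The 112 genes also had fewer reads, with a median mean count of 587 against 1689. Whether the wider spread holds among genes of like counts was not tested. The si-MALAT1 libraries of the 3 cell lines all lay above the 3 controls, in scaled counts, for 27 of the 112 genes, against 2.16% of the coding genes, a contrast that the choice of genes did use. The genes were chosen for a change in each cell line, and the part of that choice in the residual spread of this test was not tested. A gene such as TP63, with at most 18 reads in each library of H460 and H1299, met the minimum of the mean count through A549, where it was high, so its difference between cell lines was partly fixed by that minimum.

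Of the 88 genes, 36 were highest in H1299, 36 in A549, and 16 in H460. These are shares of 40.9%, 40.9%, and 18.2%, against 39.0%, 28.6%, and 32.5% of the coding genes that differed. TNFRSF11B was lower in the other cell lines than in H460, with log2 differences of -4.92 in H1299 and -7.66 in A549 (edgeR adjusted p = 4.08e-05), with a control TPM of 24.3, 0.951, and 0.0548. LRRK2 was the reverse, higher on the log2 scale by 4.29 in H1299 and by 4.56 in A549 than in H460 (adjusted p = 4.55e-05). SCARA3 had log2 differences from H460 of -3.58 in H1299 and 1.03 in A549 (adjusted p = 8.52e-05). FLRT3 was higher in A549 than in H460 by 3.87 (adjusted p = 0.000273), and FOS by 2.22 (adjusted p = 0.00426). EPCAM was higher in A549 than in H460 by 3.10 (adjusted p = 0.00027).

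The 24 genes for which no difference was called included EGR1 (adjusted p = 0.244), KCNK3 (0.11), ARID5B (0.0981), FAIM (0.226), KIF2A (0.156), and STYX (0.918), all from edgeR. The estimated differences of STYX from H460 were -0.05 in H1299 and -0.05 in A549, and those of CA5B were -0.0028 and -0.08, so both were small. For ABHD14A-ACY1 (adjusted p = 0.175) the differences were 0.70 and -1.01 but the libraries varied, and a p that misses the threshold does not show that the level was alike.

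**Figure D4:**
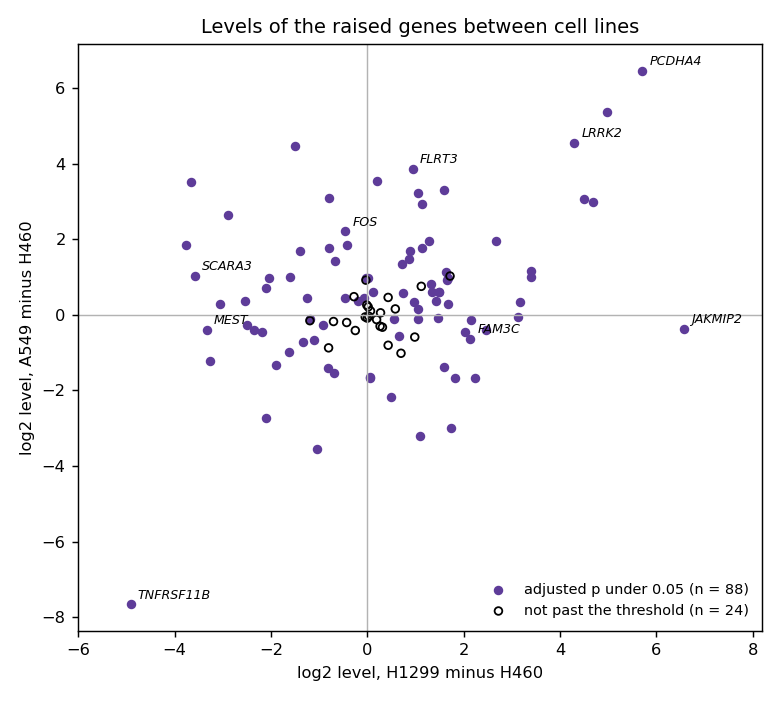
Difference in level of the 112 genes between cell lines on the log2 scale, H1299 minus H460 (horizontal axis) and A549 minus H460 (vertical axis), estimated by edgeR over the control and si-MALAT1 libraries. Filled points are the 88 genes with an adjusted p under 0.05 and open points the other 24, most of which lie near 0, with TNFRSF11B at the lower left and PCDHA4 at the upper right.

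The markers of the cell type were read beside these results. KRT8 and KRT18, keratins of simple epithelia, had a TPM of at least 123 in each of the 6 libraries. Of the other epithelial markers, KRT19 was high only in H460 and CDH1 was near 0 in H460 and H1299. The epithelial markers did not move as one. EPCAM was higher after si-MALAT1, while in A549 KRT8 went from 1780 to 793 TPM and KRT18 from 2920 to 1240. The sum of the 5 epithelial markers was 480 to 4730 TPM in the controls and 458 to 2080 after si-MALAT1. COL1A1, a collagen gene that serves as a fibroblast marker, was among the 112 genes, with 175 control reads against 472 after si-MALAT1 in H460, 38 against 144 in H1299, and 267 against 469 in A549. Of the other fibroblast markers, COL1A2 was at 0 TPM in 5 of 6 libraries, while COL3A1 was at 15.5 (control) and 12.9 (si-MALAT1) TPM in H460, and at 10.2 and 8.56 in A549. LUM was at 3.93 and 3.97 TPM in H460 and PDGFRB at 2.52 and 2.05. The 6 fibroblast markers summed to 0.301 to 22.5 TPM in the controls and 0.857 to 20.3 after si-MALAT1. PTPRC and CD3E, markers of leukocytes and T cells, were at 0 in the 6 libraries, and the 5 blood cell markers summed to 0.865 to 7.54 TPM in the controls and 0.558 to 9.33 after si-MALAT1. CD14 made up most of that sum in H460, at 7.41 (control) and 9.25 (si-MALAT1) TPM. It did so in A549 too, at 4.53 and 9.06, and was near 0 in H1299. Of the 4 lung lineage markers, NAPSA was among the 112 genes at a TPM of at most 1.79, SFTPB was at 0 in each library, and NKX2-1 was at 0 in H460 and A549. The sum of the 4 lung lineage markers was 0.106 to 1.43 TPM in the controls and 0.311 to 1.95 after si-MALAT1.

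The 112 genes had long 3′ UTRs and few exons. The median 3′ UTR was 1995.5 bases, against 1321.5 over all coding genes, and the median coding sequence 1324.5 bases against 1440. The transcript with the longest coding sequence had a median of 6 exons, against 9. Chromosome X held 10 of the genes, 8.93%, against 3.47% of all coding genes, and chromosome 19 held 3, 2.68%, against 6.93%. The 10 genes on chromosome X were CA5B, SCML2, ZNF157, SNX12, NAP1L2, TAF9B, RPL36A-HNRNPH2, GPRASP2, TCEAL1, and KLHL13. They were spread along the chromosome, and 3 of the 434 coding genes there were lower in the 3 cell lines, against 1.2% of all coding genes. There were 9 pairs of neighbours less than 1000 kb apart, among them PCDHA4 and PCDHB11, FOS and FLVCR2, and LRRK2 and CNTN1. No number for other coding genes stands beside these pairs, so no clustering is read from them.

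Because MALAT1 has been described as binding miRNAs, the 3′ UTRs were searched for the 7-base words that pair with miRNA seeds (bases 2 to 8 of the mature miRNA). The set of 26 miRNAs was picked once the values had been seen, and no miRNA was measured here. The 3 with the highest ratio of shares, below, are shown with the seed in capitals, as RefSeq gives them.
miR-21-5p: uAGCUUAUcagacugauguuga
miR-221-3p: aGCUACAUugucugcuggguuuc
miR-200b-3p: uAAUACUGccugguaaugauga

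The miR-21-5p word ATAAGCT was found in the 3′ UTRs of 23 of the 112 genes, 20.5%, against 9.88% of 12452 coding genes. The miR-221-3p word ATGTAGC was found in 18.8% against 9.35%, and the miR-200b-3p word CAGTATT in 34.8% against 19.4%. All 26 words were found in a larger share of the 112 genes than of all genes, with ratios of the shares from 1.04 for miR-17-5p to 2.08 for miR-21-5p. The 3′ UTRs of the 112 genes were longer, too. Counted per 1000 bases, 20 of the 26 words were still more frequent in the 112 genes, with ratios from 0.819 to 1.92 and a median of 1.145. The word of miR-21-5p occurred 0.108 times per 1000 bases against 0.0562, and that of miR-17-5p 0.149 times against 0.182. With the 3′ UTRs of all genes split into 3 equal classes of length, the longest held 52 of the genes, of which 26.9% held the miR-21-5p word against 21.1% of all genes of that length, but for miR-200b-3p it was 34.6% against 39.7%. In the middle class, with 42 genes, the shares were 21.4% against 6.95% and 45.2% against 15.1%. In the shortest class, with 18 genes, they were 0.0% against 1.61% and 11.1% against 3.32%. For miR-221-3p the shares were 26.9% against 19.9% in the longest class, 16.7% against 6.59% in the middle class, and 0.0% against 1.61% in the shortest. These shares are descriptions with no test.

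The following sites show the words in genes described above, read from the 3′ UTR on the strand of the gene, with the word in capitals. They lie on GRCh38 at chr3:189896156-189896178 in TP63, at chr1:91682436-91682458 in TGFBR3 (minus strand), at chr14:75281619-75281641 in FOS, at chr5:138468678-138468700 in EGR1, and at chr1:58781730-58781752 in JUN (minus strand).
TP63, miR-21-5p word: cattgcacATAAGCTtccatttt
TGFBR3, miR-21-5p word: cagctaaaATAAGCTcagtgata
FOS, miR-221-3p word: ttccggagATGTAGCaaaacgca
EGR1, miR-200b-3p word: agcagtccCAGTATTctcagagc
JUN, miR-200b-3p word: atctcattCAGTATTaaaggggg

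**Figure D5:**
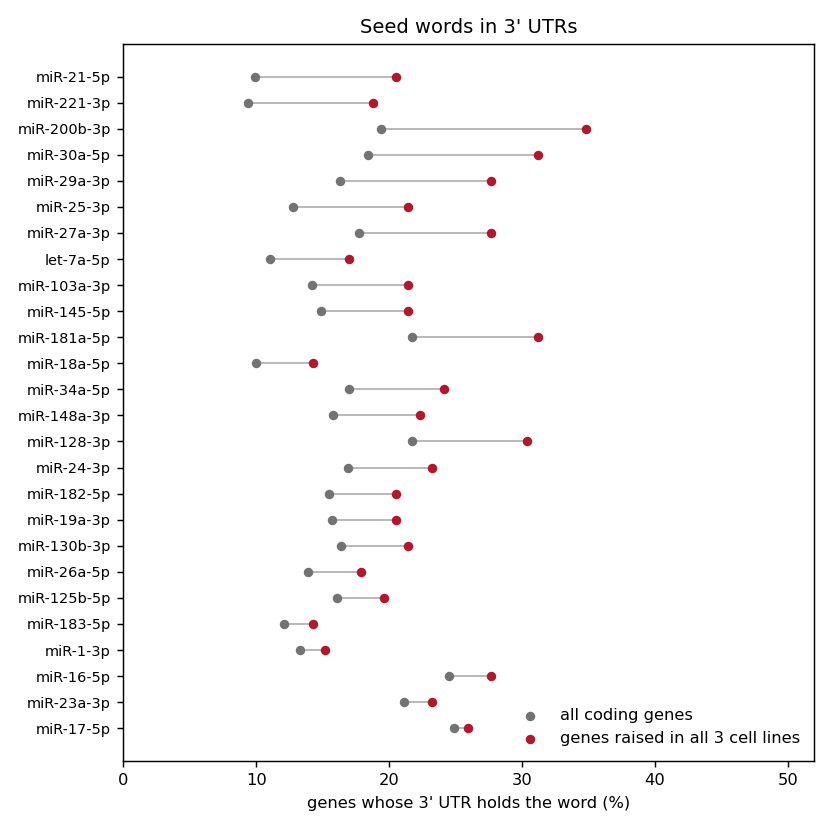
Share of genes whose 3′ UTR holds the 7-base word that pairs with the seed of each of 26 miRNAs (horizontal axis, percent), in the 112 genes (red) and in all coding genes with a 3′ UTR (grey). The red point lies to the right of the grey one for each miRNA, and the gap runs from 34.8% against 19.4% for miR-200b-3p to 25.9% against 24.9% for miR-17-5p.

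The words TGAATCA and ATGAATC were the opposite case. TGAATCA was found in 4.46% of the 112 genes against 13.0% of all, and ATGAATC in 3.57% against 9.61%. Either word was found in 7 of the genes (FOSB, SNN, KALRN, ATL3, NUPR1, TTLL7, and HECTD2), 6.25%, against 17.6% of all, although the 3′ UTRs of the 112 genes were longer. Both words had been read in earlier results of these data, and the 112 genes were chosen by the change in the same data. The low shares are therefore not independent evidence of anything, and their cause was not tested. The sites in SNN (chr16:11678605-11678627) and KALRN (chr3:124722070-124722092) are printed, both on the plus strand, with the word in capitals.
SNN, first word: tgggagttTGAATCAggcccatt
KALRN, first word: ggatgaccTGAATCAagatcccc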

How the data were processed

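RNA-seq of 6 libraries was used, from control and si-MALAT1-transfected H460, H1299, and A549 cells. The authors trimmed the reads with Trimmomatic, aligned them to GRCh38 with HISAT2 2.1.0, and deposited read counts and TPM per gene from StringTie. The submitters' processing notes give StringTie version 1.3.4b, while the methods of the paper name a different version. The deposited counts are whole numbers and not normalized. The deposited TPM were scaled by the authors for length and depth. Libraries were stranded, and whether reads were counted by strand is not given in the sources used here. Another 18 columns belong to samples outside these 6 and were not used.

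The members and lists were chosen with earlier results of these data known. From the counts, scaled by median-of-ratios size factors over genes above 0 in the 6 libraries, the change was log2 of the scaled count plus 1, si-MALAT1 minus control. Genes given with values were the 10 with the largest smallest change at a mean count of at least 100, the 5 with the highest mean control TPM, the 5 with the widest range of change, the 5 with the largest and the 5 with the smallest range of control log2(TPM + 1), members of the listed pathways, and the 3 on each side of the threshold. Other genes named with values were chosen after their values were seen. Cell lines were compared with edgeR 4.0.16 (TMM, filterByExpr, quasi-likelihood F-test, 2 residual degrees of freedom), and DESeq2 1.42.0 was an alternative. A cell line's control and si-MALAT1 library are paired by the cell line. In counts simulated for 20876 genes, the cell line test recovered 88 of 100 genes changed 2-fold and 100 of 100 changed 4-fold, and 16 of 204 calls were false. The simulation gave every gene the same dispersion, had no treatment effect, and changed genes in H1299 only. In the data 62.9% of genes were called, so these figures are not the power or error of the test there. 3′ UTRs came from the deposited annotation (NCBI release 109.20200522) and the hg38 sequence, promoters and miRNAs from RefSeq GRCh38.p14. The software was Python 3.11.15 with pandas 2.3.3, scipy 1.17.1, and numpy 2.4.6, beside R 4.3.3. The result of 1 further gene list is not reported here.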

Additional observations from a re-analysis of the deposited data

How the results depend on the processing

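The number of genes depended on the threshold, on the measure, and on the number of cell lines. Of the 112 genes, 8 had a log2 change of at least 1 in the 3 cell lines. With log2(TPM + 1) in place of scaled counts 21 genes passed, 20 of them among the 112, and the median over the 112 genes of the mean change was 0.60 (0.96 with counts). The pseudocount weighs on genes with a TPM near 1, and the ratio of TPM with no pseudocount, chosen after the values were seen, gave 86 genes, of which 74 were among the 112. Requiring the change in only 2 cell lines gave 195 genes without A549, 253 without H1299, and 377 without H460. With TMM factors 90 genes passed, with a pseudocount of 10 it was 94, and with other minimums of the mean count 93 to 126. The median change stayed between 0.86 and 0.97 with TMM factors, with a pseudocount of 10, and without each cell line in turn. Of the 43 genes with values by rule, the mean change moved by more than 1 SD for 26 with log2(TPM + 1), for 1 with TMM factors, and for 1 with a pseudocount of 10, and none changed sign. The number of the 112 genes that differed between cell lines was 56 with no treatment term, a model that leaves the change used to choose them in the residual. It was 88 with RLE factors, 84 with no filter, 90 with DESeq2, and 77 to 86 when each library was left out in turn. The shares of all coding genes under these settings are not given here. Depth limits the 15 genes that had a library with fewer than 10 reads.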
